A study of Mus musculus with 18 samples.

Results

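The genes described here encode 9 transcription factors that build or tune the macrophage lineage, Spi1, Cebpa, Cebpb, Maf, Mitf, Tfec, Klf4, Bhlhe40 and Batf2. They were the rows of the expression table that carried these 9 symbols, out of 25926 genes in all. Rows were taken by symbol, but the 9 symbols were chosen with earlier results of these data known, so their direction is not independent evidence. RNA-seq had been carried out on bone marrow-derived macrophages (BMDMs) from C57BL/6J mice, listed as strain C57BL/6, which were grown for 7 days in 50 ng/mL M-CSF, the growth factor that drives marrow cells into macrophages. The BMDMs sat in Transwell inserts, whose pores measured 0.4 μm, above renal tubular epithelial cells (TECs) from wild-type mice, and 18 samples fell into 3 groups of 6. NC samples were BMDMs given PBS above TECs that received no crystals, COM samples were BMDMs given PBS above TECs that had received calcium oxalate monohydrate (COM), the main crystal of kidney stones, at 100 μg/mL for 24 h, and COM+Met samples were BMDMs given 5.0 mM Met for 24 h above TECs exposed to COM in the same way. The labels do not spell out Met, and no group held Met without COM. All BMDMs shared the coculture with TECs, and no group held BMDMs alone. The methods give an age of 6-8 weeks for the C57BL/6J mice, the labels none, and no label tells if the 6 samples per group were separate mice or cultures, so each p-value below covers the spread among these samples alone, and that spread may be technical.

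Macrophages are specified by a small set of DNA-binding proteins that act together. PU.1, the product of Spi1, is the ETS factor that opens macrophage enhancers, and it does so with the C/EBP factors, basic leucine zipper (bZIP) proteins encoded by Cebpa in progenitors and monocytes and by Cebpb in mature and activated cells. Maf encodes c-Maf, a bZIP factor of resident and IL-10-producing macrophages. Mitf and Tfec encode related basic helix-loop-helix leucine zipper proteins of the MiT family, which act on lysosomal and osteoclast genes. Klf4 encodes a zinc finger factor of monocyte differentiation and alternative activation, Bhlhe40 a basic helix-loop-helix repressor bound to E-boxes, and Batf2 a bZIP factor that interferon gamma and lipopolysaccharide induce and that acts with IRF1.

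The values were FPKM, fragment counts corrected for gene length and for the size of each library, so that levels can be compared between genes per length. FPKM summed to 415715-430822 in the NC samples, 380731-449186 in the COM samples and 430165-441308 in the COM+Met samples, and the read depth behind a value is unknown. The 18 samples did not form 3 tight groups. Over 10751 genes, Pearson's r between samples on log2(FPKM + 1) ranged from 0.989 to 0.995 within COM+Met, from 0.938 to 0.995 within NC and from 0.888 to 0.995 within COM. COM-4, COM-5 and COM-6 stood apart from COM-1, COM-2 and COM-3, and NC-5 and NC-6 stood apart from NC-1 to NC-4. Many results below are therefore also given without these samples, though not every changed call is listed. The sets were picked from these same values. The p-values of such fits therefore show dependence on the samples and are not independent evidence. In every group, 8 of 8 macrophage markers had a mean over 1 FPKM. They summed to 11080-15610 FPKM in NC, 10600-14290 FPKM in COM and 12310-17050 FPKM in COM+Met, mostly Lyz2. Other markers moved in both directions, with means of 8.05 in NC and 83.7 FPKM in COM for Fcgr1, and 19.0 and 9.93 FPKM for Mertk. Lymphocyte markers summed to at most 0.281 FPKM in any sample.

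Markers of other cells were present at lower levels and moved with the groups. Neutrophil markers summed to 535-1017 FPKM in NC, 170-552 FPKM in COM and 74.0-137 FPKM in COM+Met, with 7, 5 and 4 of 10 at a mean of 1 FPKM or more, mostly S100a8, S100a9 and Mmp8, and with Elane and Mpo listed at 0 in every COM and COM+Met sample. Dendritic cell markers, mostly Ccr7, which macrophages also express, summed to 1.03-23.4 FPKM in NC, 63.6-220 FPKM in COM and 37.7-75.5 FPKM in COM+Met. Tubular epithelial markers, mostly Cdh1, summed to 10.9-18.2, 0.484-1.37 and 0.0603-0.332 FPKM in the same order. Mast cell markers, in NC mostly Cpa3, summed to 7.31-17.0, 0.656-3.35 and 0.731-1.67 FPKM, and stromal markers to 13.1-59.4, 4.59-36.3 and 2.33-7.26 FPKM. Some markers did not follow the fall of their list in COM. In the same order, means were 0.875, 1.85 and 1.00 FPKM for Kit of mast cells and 1.06, 4.81 and 2.93 FPKM for Pdgfrb of stromal cells. For Camp of neutrophils they were 4.33, 7.93 and 3.08 FPKM. C/EBP factors are also used by neutrophils, and Mitf by mast cells. In bulk samples, fewer cells of a type and less RNA per cell cannot be told apart, and the part of these cells in the results below was not tested.

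Of the 4 factors lower in COM, 3 have a promoter in the RefSeq table used here, and their sequences are shown because PU.1 and the MiT factors are known to bind short, recognisable motifs. Each run holds the 250 bases before the RefSeq start on GRCm38.p6, written 5′ to 3′ on the strand of the gene. Capitals mark the ETS core GGAA, or TTCC where it lies on the other strand, and in Klf4 also the E-box CACGTG, which MiT factors and the product of Bhlhe40 are known to bind.
Cebpa: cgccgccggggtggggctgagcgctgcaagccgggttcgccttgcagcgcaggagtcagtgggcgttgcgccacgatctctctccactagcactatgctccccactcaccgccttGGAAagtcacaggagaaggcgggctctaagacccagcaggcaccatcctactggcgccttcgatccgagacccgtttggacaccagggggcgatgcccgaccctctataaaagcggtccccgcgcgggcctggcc
Klf4: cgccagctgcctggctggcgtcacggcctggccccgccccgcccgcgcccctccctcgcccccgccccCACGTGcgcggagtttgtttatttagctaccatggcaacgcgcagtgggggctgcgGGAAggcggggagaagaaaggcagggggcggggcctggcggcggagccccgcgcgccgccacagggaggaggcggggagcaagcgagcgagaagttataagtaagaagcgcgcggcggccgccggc
Tfec: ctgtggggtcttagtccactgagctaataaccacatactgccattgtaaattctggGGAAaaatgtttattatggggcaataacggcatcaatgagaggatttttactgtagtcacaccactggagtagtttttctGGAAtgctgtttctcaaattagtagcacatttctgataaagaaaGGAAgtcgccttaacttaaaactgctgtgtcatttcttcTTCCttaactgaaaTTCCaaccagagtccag
Cebpa lies at chr7:35119043-35119292 on the plus strand, Klf4 at chr4:55532476-55532725 on the minus strand and Tfec at chr6:16898442-16898691 on the minus strand. The GC content was 66.4%, 74.0% and 39.2%, against a median of 52.4% over 32851 windows of this length. Cebpa and Klf4 held 1 ETS core each and Tfec held 5, where the median window held 3 and 18% of windows held at least 5. CACGTG was found in Klf4 alone among the 7 windows of the 5 factors in the table, which are Cebpa, Cebpb, Klf4, Tfec and, with 3 starts, Mitf, and it was in 6.02% of all windows. The longer PU.1 sequence GAGGAAGT, in 2.44% of all windows, was in 0 of the 7. All motifs were searched on both strands, GAGGAAGT contains the ETS core, and a match is a description of these letters and not a binding site.

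In NC, Spi1 was the most abundant of the factors. Its mean was 210.0 FPKM, and 97.5% of the 10923 genes at 1 FPKM or more lay below it. Bhlhe40 followed at 64.7 FPKM, then Cebpa at 39.9, Cebpb at 30.8, Tfec at 28.5, Klf4 at 23.3, Mitf at 14.8, Maf at 2.35 and Batf2 at 0.777 FPKM, each a mean of 6 samples. Neighbours in this order overlapped in their samples from Cebpa down to Mitf, and Maf overlapped with Batf2. In COM the order of means was Spi1, Bhlhe40, Cebpb, Mitf, Batf2, Cebpa, Tfec, Klf4 and Maf, and in COM+Met it was Spi1, Bhlhe40, Cebpb, Cebpa, Batf2, Mitf, Tfec, Klf4 and Maf. Spi1 and Bhlhe40 were therefore on top in every group without overlap with the next factor, whereas Batf2 moved from the last place to the middle. Between Cebpb and Tfec in COM, and between Cebpb and Mitf in COM+Met, each factor overlapped with the next.

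**Figure D1:**
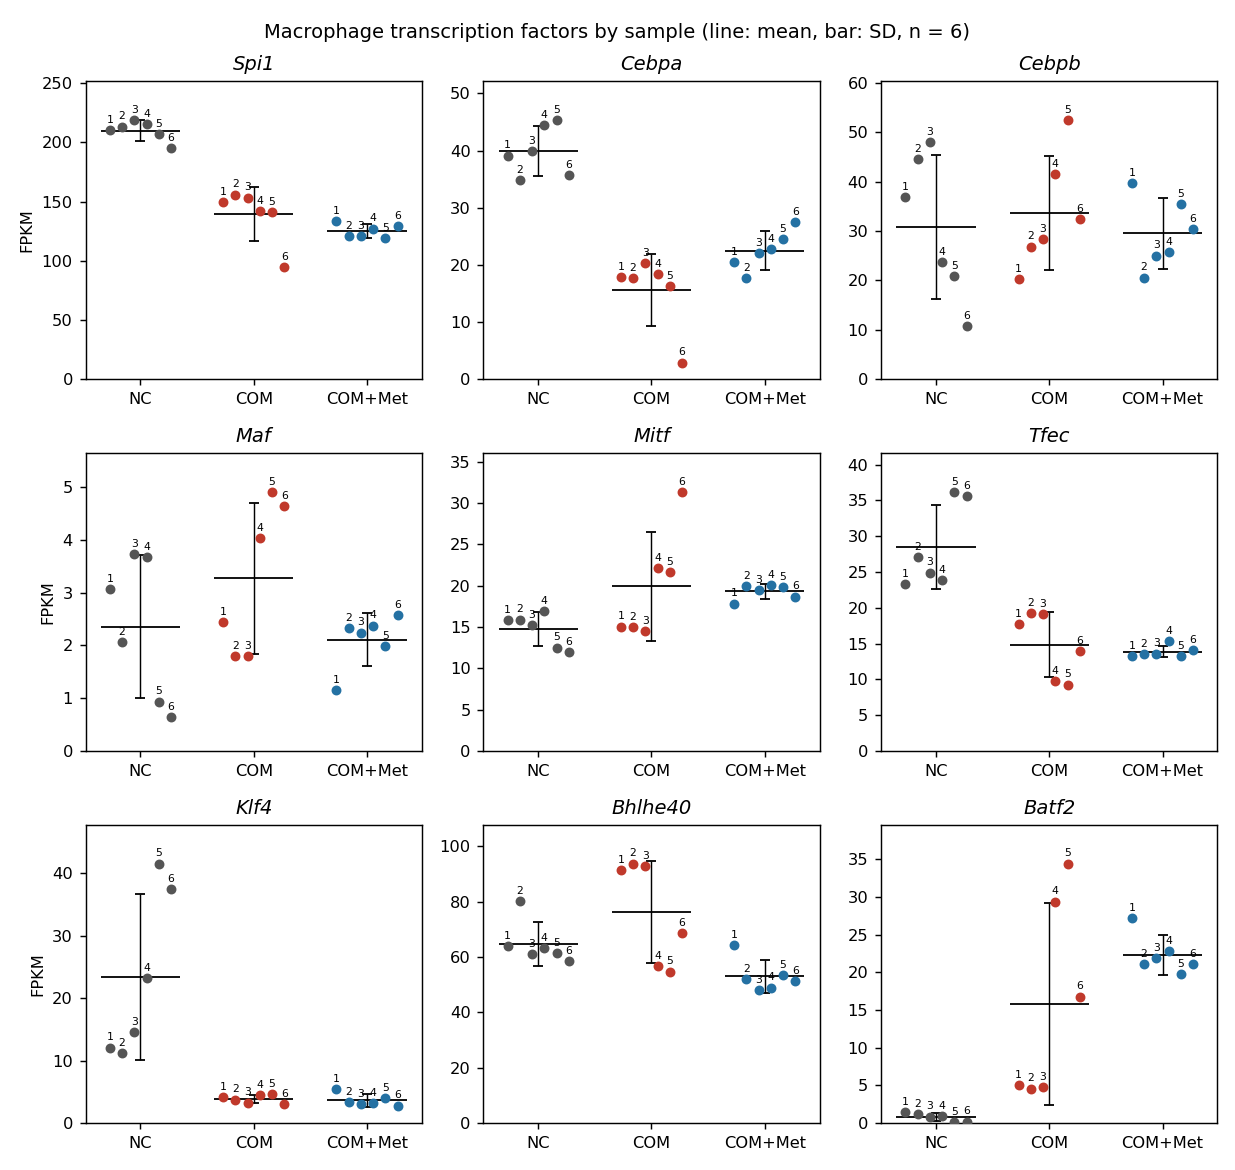
FPKM of the 9 factors in the 18 samples, on linear axes that start at 0, with a numbered point for each sample, a line for the group mean and a bar for the SD (n = 6). Klf4 and Cebpa are lower and Batf2 is higher in COM and COM+Met than in NC, and the COM points of Batf2 form a low set at 4.56-4.98 FPKM and a high set at 16.8-34.4 FPKM.

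The comparison of COM with NC asks how BMDMs changed when the TECs below them had been exposed to crystals. Of the 9 factors, 4 fell (Klf4, Cebpa, Tfec and Spi1), 1 rose (Batf2) and 4 did not pass the test (Cebpb, Maf, Mitf and Bhlhe40). The test was limma on log2(FPKM + 1), with a pass at a Benjamini-Hochberg adjusted p below 0.05 over the 10900 genes whose mean reached 1 FPKM. The share that passed, 5 of 9 or 55.6%, was near the background, since 53.3% of all genes passed in this comparison. The same 5 factors had groups that did not overlap, as did 38.2% of all genes. Adding 1 before taking logs understates the change of low genes, and Batf2, with a mean under 1 FPKM in NC, passed the filter on low values only through the group in which it was high. The median change of all genes was -0.27 on the log2 scale, so that each change is also given relative to this shift.

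Spi1 was lower in every COM sample than in any NC sample. NC-1 to NC-6 held 211, 213, 219, 216, 207 and 195 FPKM, and COM-1 to COM-6 held 150, 156, 153, 142, 141 and 94.5 FPKM. The NC samples were close together, and COM-6 lay below the other COM samples. Means were 210.0 ± 8.52 in NC and 139 ± 22.8 FPKM in COM (SD, n = 6 each), with a log2 change of -0.61 (SE 0.13, limma adjusted p = 0.00147), or -0.34 relative to the median of all genes. The gene (ENSMUSG00000002111) lies on GRCm38 at chr2:91082390-91115756 on the plus strand.

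Cebpa showed a larger fall than Spi1 on the log2 scale. The 6 NC samples read 39.1, 34.9, 39.9, 44.5, 45.4 and 35.7 FPKM, and the 6 COM samples 17.9, 17.8, 20.3, 18.4, 16.3 and 2.92 FPKM. COM-6 again was the lowest, whereas the other COM samples lay within a narrow range. Means were 39.9 ± 4.36 and 15.6 ± 6.35 FPKM (SD, n = 6 each), and the log2 change was -1.47 (SE 0.35, limma adjusted p = 0.00345), or -1.20 relative to all genes. Without COM-4, COM-5 and COM-6 it was -1.05 (limma adjusted p = 2.44e-05), and without COM-1, COM-2 and COM-3 it was -1.89 (limma adjusted p = 0.00368). Cebpa (ENSMUSG00000034957) lies at chr7:35119293-35121928 on the plus strand of GRCm38, just after the promoter shown above.

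Cebpb, the C/EBP factor of activated macrophages, did not pass. It varied within the groups more than between them, with 36.9, 44.5, 48.0, 23.7, 21.0 and 10.8 FPKM in NC and 20.2, 26.9, 28.3, 41.5, 52.5 and 32.4 FPKM in COM. Means were 30.8 ± 14.6 and 33.6 ± 11.6 FPKM (SD, n = 6 each), with a log2 change of 0.21 (SE 0.33, limma adjusted p = 0.602). With sample weights in limma the change turned to -0.50 (adjusted p = 0.0489). The gene (ENSMUSG00000056501) has a single exon at chr2:167688915-167690418 on the plus strand of GRCm38, and 908 of its bases overlap Tmem189 on the other strand, which had a mean of 74.4 FPKM over the 18 samples. Whether strand was used in counting is not given in the sources used here, so reads of this overlap cannot be told apart.

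Klf4 had the largest fall of the 9 factors. The NC samples held 12.1, 11.2, 14.5, 23.2, 41.6 and 37.5 FPKM, with NC-5 and NC-6 highest, and the COM samples held 4.13, 3.72, 3.24, 4.51, 4.60 and 3.07 FPKM. The spread was wide in NC and small in COM, and the groups did not overlap. The mean was 6.02-fold lower, 3.88 ± 0.644 against 23.3 ± 13.3 FPKM (SD, n = 6 each), and the log2 change was -2.15 (SE 0.30, limma adjusted p = 8.18e-05), or -1.88 relative to all genes. Without NC-5 and NC-6 it was -1.69 (limma adjusted p = 4.89e-05). Klf4 (ENSMUSG00000003032) lies at chr4:55527143-55532466 on the minus strand of GRCm38.

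Of the MiT factors, Tfec fell and Mitf did not pass. Tfec read 23.3, 27.1, 24.9, 23.9, 36.2 and 35.6 FPKM in NC and 17.7, 19.3, 19.1, 9.79, 9.30 and 13.9 FPKM in COM. Means were 28.5 ± 5.89 and 14.9 ± 4.56 FPKM (SD, n = 6 each), and the log2 change was -0.93 (SE 0.20, limma adjusted p = 0.00191), or -0.66 relative to all genes. Its lowest samples were COM-4, COM-5 and COM-6, which for Mitf were the highest. Mitf read 15.9, 15.9, 15.3, 16.9, 12.5 and 11.96 FPKM in NC and 15.1, 15.0, 14.5, 22.1, 21.7 and 31.4 FPKM in COM, with a log2 change of 0.37 (SE 0.18, limma adjusted p = 0.0999, two-sided exact permutation test p = 0.0801). Mitf passed with size factors from the median of ratios (log2 change 0.67, limma adjusted p = 0.0347), and also without COM-1, COM-2 and COM-3 (0.72, limma adjusted p = 0.00283). Tfec (ENSMUSG00000029553) lies at chr6:16833373-16898441 on the minus strand and Mitf (ENSMUSG00000035158) at chr6:97807052-98021349 on the plus strand of GRCm38, and their annotated transcripts share no identical run longer than 14 bases.

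Maf and Bhlhe40 did not pass. Maf held 3.07, 2.07, 3.72, 3.67, 0.939 and 0.650 FPKM in NC and 2.44, 1.80, 1.80, 4.03, 4.91 and 4.64 FPKM in COM, and the log2 change was 0.39 (SE 0.30, limma adjusted p = 0.289). Bhlhe40 held 63.8, 80.3, 61.1, 63.2, 61.4 and 58.6 FPKM in NC and 91.5, 93.8, 92.8, 56.8, 54.7 and 68.6 FPKM in COM, and the log2 change was 0.21 (SE 0.16, limma adjusted p = 0.284). For Bhlhe40, COM-1, COM-2 and COM-3 lay above every NC sample, whereas COM-4 and COM-5 lay below every NC sample. With COM-1, COM-2 and COM-3 as the only COM samples its log2 change was 0.52 (limma adjusted p = 0.00127), and it was also 0.52 with size factors (limma adjusted p = 0.00402). Maf (ENSMUSG00000055435) lies at chr8:115682942-115707794 on the minus strand, and Bhlhe40 (ENSMUSG00000030103) at chr6:108660629-108666925 on the plus strand of GRCm38.

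Batf2 was the factor that rose. It read 1.45, 1.18, 0.841, 0.929, 0.0998 and 0.160 FPKM in NC and 4.98, 4.56, 4.79, 29.4, 34.4 and 16.8 FPKM in COM. All COM samples were above all NC samples, and COM-4, COM-5 and COM-6 were well above the other COM samples. The mean was 20.4-fold higher, 15.8 ± 13.4 against 0.777 ± 0.545 FPKM (SD, n = 6 each), with a log2 change of 2.87 (SE 0.49, limma adjusted p = 0.000378), or 3.14 relative to all genes. The log2 change was 1.76 without COM-4, COM-5 and COM-6 (limma adjusted p = 0.000432) and 3.97 without COM-1, COM-2 and COM-3 (limma adjusted p = 5.4e-06). Batf2 (ENSMUSG00000039699) lies at chr19:6140983-6172476 on the plus strand of GRCm38, and 566 of its bases overlap Arl2 on the other strand, which had a mean of 10.5 FPKM. For each of Spi1, Cebpa, Tfec, Klf4 and Batf2, the two-sided exact permutation test over samples gave p = 0.00216, the smallest that 6 against 6 allows.

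**Figure D2:**
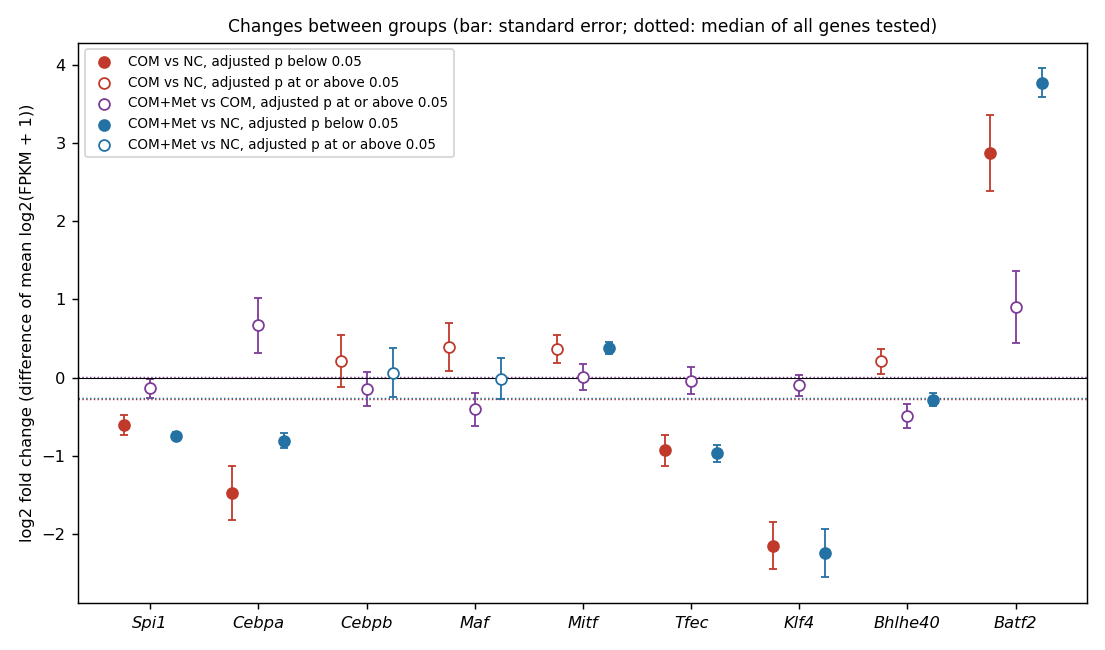
log2 fold change of each factor on the log2(FPKM + 1) scale in the 3 comparisons, with the standard error as a bar and the median of all genes tested as a dotted line. Klf4 lies lowest at -2.15 and Batf2 highest at 2.87 for COM against NC, and for COM+Met against COM all 9 factors lie between -0.49 and 0.90.

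The comparison of COM+Met with COM asks how BMDMs above crystal-exposed TECs differed when they were given Met. None of the 9 factors passed with limma, 1 of them (Bhlhe40) had an unadjusted p below 0.05, and 2 (Bhlhe40 and Cebpa) had a two-sided exact permutation p below 0.05. The background was 13.4% of the 10364 genes tested, and 11.2% of genes had groups that did not overlap, against 0 of the 9. The median change of all genes was 0.00 on the log2 scale. The 6 COM+Met samples were closer to each other than the COM samples for each factor but Klf4, and for 5 of the 9 (Spi1, Cebpb, Mitf, Tfec and Batf2) all of them lay within the COM range.

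Bhlhe40 was closest to the threshold. COM+Met-1 to COM+Met-6 held 64.4, 52.0, 48.0, 49.0, 53.4 and 51.3 FPKM, and 5 of these 6 lay below every COM sample. The mean was 53.0 ± 5.90 against 76.4 ± 18.5 FPKM (SD, n = 6 each), a log2 change of -0.49 (SE 0.15, limma adjusted p = 0.0517, two-sided exact permutation test p = 0.0152). It passed without COM-4, COM-5, COM-6 or COM+Met-1, each left out alone, with limma adjusted p = 0.0234, 0.0188, 0.0323 and 0.0477. Without COM-4, COM-5 and COM-6 together, the change was -0.80 (limma adjusted p = 4.67e-06). Without COM-1, COM-2 and COM-3 together, the change was -0.18 (limma adjusted p = 0.251).

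Cebpa was higher in 5 of 6 COM+Met samples than in any COM sample. The values were 20.4, 17.8, 22.1, 22.8, 24.5 and 27.6 FPKM, with a mean of 22.5 ± 3.36 FPKM (SD, n = 6), and all were below the NC samples. The log2 change was 0.67 (SE 0.35, limma adjusted p = 0.233, two-sided exact permutation test p = 0.0108). Leaving out COM-6, at 2.92 FPKM, gave a smaller change with a smaller error, 0.29 (SE 0.10, limma adjusted p = 0.0489). The other C/EBP factor, Cebpb, held 39.7, 20.6, 25.0, 25.8, 35.5 and 30.5 FPKM in COM+Met, all within the range of COM (log2 change -0.15, limma adjusted p = 0.691).

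Batf2 was at 27.2, 21.1, 21.9, 22.8, 19.7 and 21.0 FPKM in COM+Met. All 6 lay above the COM samples at 4.56-4.98 FPKM and within the range of those at 16.8-34.4 FPKM, and the log2 change was 0.90 (SE 0.46, limma adjusted p = 0.221). The direction depended on which COM samples were used, since it was 2.004 (limma adjusted p = 5.76e-09) against COM-1, COM-2 and COM-3 alone and -0.21 (limma adjusted p = 0.434) against COM-4, COM-5 and COM-6 alone. For Mitf and Tfec the direction likewise depended on the COM samples used, and these sets of COM samples were chosen from the data. Against COM-1 to COM-3 alone, Mitf was higher by 0.36 and Tfec lower at -0.41 (limma adjusted p = 4.65e-05 and 5.1e-05), and against COM-4 to COM-6 alone they were at -0.34 and 0.33 (limma adjusted p = 0.0566 and 0.0686).

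Spi1, Klf4 and Maf were close to COM or below it. Spi1 was at 133, 121, 121, 127, 119 and 129 FPKM in COM+Met (log2 change -0.14, SE 0.12, limma adjusted p = 0.483). It passed without COM-6, at -0.24 (limma adjusted p = 0.00654), and the 5 remaining COM samples lay above all COM+Met samples. Without COM-4, COM-5 and COM-6, Spi1 was at -0.29 (limma adjusted p = 0.000157). Without COM-1, COM-2 and COM-3 it was at 0.02 (limma adjusted p = 0.939). Klf4 was at 5.46, 3.33, 2.99, 3.16, 3.93 and 2.77 FPKM (-0.10, limma adjusted p = 0.681), all below the NC values of 11.2-41.6 FPKM. Maf was at 1.16, 2.32, 2.24, 2.38, 1.99 and 2.57 FPKM (-0.40, SE 0.21, limma adjusted p = 0.232). Against COM-4, COM-5 and COM-6 alone Maf passed, at -0.84 (limma adjusted p = 0.00506), and against COM-1, COM-2 and COM-3 alone it was at 0.04 (limma adjusted p = 0.848).

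**Figure D3:**
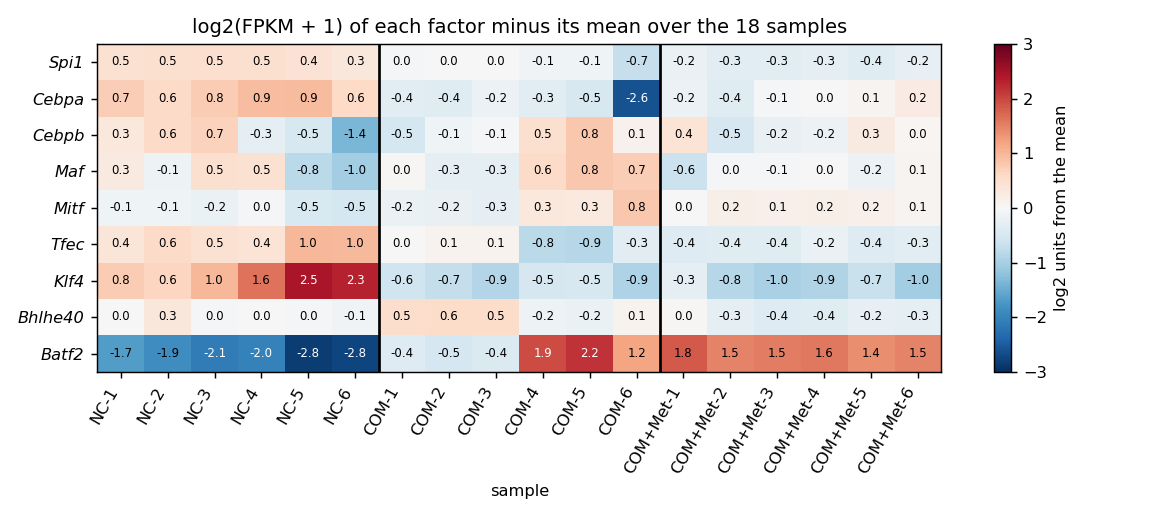
log2(FPKM + 1) of each factor minus its own mean over the 18 samples, with samples in columns and a colour scale from -3 to 3. COM-1 to COM-3 differ from COM-4 to COM-6 in 7 of the 9 rows. The COM+Met columns vary less than the COM columns in each row but Klf4, and COM+Met-1 stands apart from the other COM+Met columns for Maf and Bhlhe40.

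The comparison of COM+Met with NC shares its control samples with the first comparison and its treated samples with the second, and its values are therefore given on their own. With limma, 2 factors were higher (Batf2 and Mitf), 5 were lower (Klf4, Tfec, Cebpa, Spi1 and Bhlhe40) and 2 did not pass (Cebpb, at 0.06 with limma adjusted p = 0.861, and Maf). The share that passed, 77.8%, was near the background of 75.2% of 10786 genes. In 6 of the factors the groups did not overlap, as in 57.6% of all genes, and the median change of all genes was -0.26. The log2 changes were 3.77 for Batf2 (SE 0.19, limma adjusted p = 1.62e-09), -2.25 for Klf4 (SE 0.31, limma adjusted p = 2.09e-05), -0.97 for Tfec (SE 0.11, limma adjusted p = 3.42e-06) and -0.80 for Cebpa (SE 0.10, limma adjusted p = 7.6e-06). Spi1 was at -0.74 (SE 0.04, limma adjusted p = 7.53e-09). Mitf, which had not passed in COM, was higher by 0.38 (SE 0.08, limma adjusted p = 0.000806), with 17.8, 20.01, 19.5, 20.1, 19.8 and 18.7 FPKM in COM+Met, all above every NC sample. Bhlhe40 was at -0.28 (SE 0.08, limma adjusted p = 0.00848), near the shift of all genes, and it was at 0.03 (limma adjusted p = 0.78) with size factors and did not pass with all 18 samples in the fit (limma adjusted p = 0.0825). Tfec held 13.3, 13.6, 13.6, 15.4, 13.3 and 14.1 FPKM in COM+Met, a narrow range below every NC sample. Maf was at -0.01 (limma adjusted p = 0.969), and it passed without NC-5 and NC-6, at -0.41 (limma adjusted p = 0.0272).

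Within the groups, the factors followed the same division of samples as other genes. COM-4, COM-5 and COM-6 did not overlap with COM-1, COM-2 and COM-3 in 7 of 9 factors. Cebpb, Maf, Mitf and Batf2 were higher and Spi1, Tfec and Bhlhe40 were lower in the former, and 53.8% of 10751 genes likewise did not overlap. NC-5 and NC-6 did not overlap with NC-1 to NC-4 in 7 of 9 factors, with Tfec and Klf4 higher and Spi1, Cebpb, Maf, Mitf and Batf2 lower, as did 56.0% of genes. These sets were seen in the data and have no label, so they were not tested against each other. Fits that left out a set can have less spread within groups because of that choice. Their p-values describe dependence on the samples only. Neutrophil markers summed to 517-552 FPKM in COM-1 to COM-3 and 170-231 FPKM in COM-4 to COM-6, and dendritic cell markers to 201-220 and 63.6-67.3 FPKM, and their part in the division was not tested.

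The gene whose pattern over the 18 samples was closest to that of each factor was found by the root mean square difference of centred log2(FPKM + 1) values, over 10751 genes. The nearest gene was Taf5l for Spi1 (0.08 log2 units), Med13 for Mitf (0.10), Mospd1 for Tfec (0.12), Atp2a2 for Bhlhe40 (0.13), Gm11808 for Cebpa (0.17) and Csf3r for Maf (0.21). It was Depdc1b for Klf4 (0.22), H2-Q4 for Batf2 (0.23) and Sap30 for Cebpb (0.31). Next in order came Flii (0.09), Aftph (0.10), Nudcd2 (0.14), Calu (0.13), Rpl8 (0.20), Cd300ld3 (0.24), Mcm5 (0.23), Igtp (0.30) and Slc2a1 (0.33) for the same 9 factors. Csf3r encodes the G-CSF receptor, and H2-Q4 and Igtp are genes of antigen presentation and interferon response. Among the factors themselves the closest pair was Spi1 and Tfec (0.33) and the most distant was Klf4 and Batf2 (2.79 log2 units). These differences are not scaled to the spread of each factor, so factors that vary little lie close to many genes. The root mean square around its own mean was 0.355 for Spi1, 0.527 for Tfec and 0.52 for Cebpb. For Klf4 and Batf2 it was 1.13 and 1.76. The values share the same samples and describe likeness of pattern only.

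Relatives of the 9 factors passed about as often as other genes in COM. Of 22 listed, 21 were tested, and in COM against NC 2 were higher and 9 were lower with limma, with a median change of -0.43 against -0.27 for all genes. The share that passed, 52.4%, was near the background of 53.3%, and 42.9% were lower where 40.6% of all genes were lower and 12.7% higher. With size factors the counts were 2 higher and 6 lower, and with sample weights 2 and 15. Klf2, a relative of Klf4 that restrains macrophage activation, fell from 22.9 ± 4.46 to 5.49 ± 2.18 FPKM (log2 change -1.93, SE 0.20, limma adjusted p = 9.49e-06). Tfeb, the MiT factor of lysosome biogenesis, fell from 30.0 ± 6.36 to 9.54 ± 3.22 FPKM (-1.60, SE 0.23, limma adjusted p = 9.49e-05), and Ddit3, the stress-induced C/EBP factor CHOP, rose from 10.3 ± 0.892 to 35.2 ± 15.8 FPKM (1.57, SE 0.24, limma adjusted p = 0.000159; SD, n = 6 each). After Met, 5 relatives were higher and 1 was lower than in COM, with a median of 0.03, and of all genes 5.77% were higher and 7.58% lower. These counts rested on single samples, since 2 were higher without COM+Met-5 and 3 without COM-2 or any of COM+Met-2, COM+Met-3, COM+Met-4 and COM+Met-6, while without COM-6 5 were higher and 5 lower, with a median of -0.12. With a replicate block 2 were higher and 1 lower, and with size factors 3 and 1. Against COM, Ddit3 was higher again, at 77.5 ± 10.4 FPKM (1.22, SE 0.24, limma adjusted p = 0.00622) and Klf10 fell from 9.21 ± 1.38 to 3.76 ± 0.187 FPKM (-1.09, SE 0.09, limma adjusted p = 2.38e-05). Against NC, 4 relatives were higher and 12 lower in COM+Met, 19.0% and 57.1% of those tested beside 19.3% and 55.9% of all genes, and 5 and 9 with size factors.

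Partner and progenitor factors were mixed. Of 15 listed, 12 were tested, and 2 were higher and 3 lower in COM than in NC, with a median of -0.08 that turned to 0.22 with size factors. Id3, an inhibitor of helix-loop-helix factors, fell from 18.2 ± 5.16 to 3.15 ± 1.27 FPKM (-2.25, limma adjusted p = 1.86e-05), Fos, an AP-1 subunit, from 19.4 ± 2.18 to 4.59 ± 0.720 FPKM (-1.87, limma adjusted p = 6.38e-08), and Cbfb, the partner of the RUNX factors, from 58.6 ± 4.75 to 24.0 ± 5.37 FPKM (-1.28, limma adjusted p = 1.09e-05). Irf8 and Irf1, interferon regulatory factors that pair with PU.1 and with BATF2, were the 2 that rose, by 0.84 and 1.13 on the log2 scale. Of the same 12, 1 was higher and 4 were lower in COM+Met than in COM. Irf1 was higher by 0.72 (limma adjusted p = 0.0452) and Id3 lower at -0.89 (limma adjusted p = 0.0422), and these calls were lost in 9 and 10 of the 12 fits that left out 1 sample. Of 11 tested in COM+Met against NC, 3 were higher and 5 lower.

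Known targets of PU.1 and C/EBP factors were mixed, and 7 of the 16 also serve here as macrophage markers. All 16 were tested, and 5 were higher and 2 lower in COM than in NC, with a median of 0.01. With size factors 7 were higher and 0 lower (limma). Fcgr1, the high-affinity IgG receptor, rose from 8.05 ± 0.829 to 83.7 ± 47.1 FPKM (3.05, SE 0.29, limma adjusted p = 3.52e-06), Cd14, the lipopolysaccharide co-receptor, from 64.7 ± 38.8 to 400.5 ± 95.8 FPKM (2.86, SE 0.43, limma adjusted p = 0.000141) and Adgre1, which encodes F4/80, from 112 ± 9.98 to 577 ± 63.2 FPKM (2.36, SE 0.11, limma adjusted p = 1.39e-08). Csf1r, the M-CSF receptor and a direct PU.1 target, was at 279 ± 107 FPKM in NC and 365 ± 107 FPKM in COM and did not pass (0.44). After Met, 1 of them was higher and 2 were lower than in COM, and without COM-6 2 were higher and 5 lower. Leaving out any other single sample gave 1 or 2 in each direction. Cd68, a lysosomal membrane protein, was higher by 0.56 (limma adjusted p = 0.00274), and Itgam, the CD11b integrin chain that neutrophils also carry, was lower at -0.84 (limma adjusted p = 0.00722). Against NC, 5 were higher and 6 lower in COM+Met, and with size factors 7 were higher and 2 lower.

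Targets of MITF and its relatives were mostly lysosomal and osteoclast genes. In COM against NC, 2 of 10 tested genes were higher and 3 lower, with a median of -0.10. Acp5, the tartrate-resistant acid phosphatase of osteoclasts, rose from 23.2 ± 3.11 to 164 ± 121 FPKM (2.31, SE 0.51, limma adjusted p = 0.00231), whereas Atp6v0d2, a subunit of the lysosomal proton pump, fell from 248 ± 79.4 to 51.4 ± 13.5 FPKM (-2.24, SE 0.22, limma adjusted p = 5.69e-06) and Ctsk, the protease cathepsin K, from 178 ± 43.1 to 55.7 ± 24.8 FPKM (-1.75, SE 0.28, limma adjusted p = 0.000233). In COM+Met against COM, 6 of 10 were higher and 0 lower (limma), with a median of 0.55 against 0.00 for all genes, of which 5.77% were higher. The count of higher genes was 3 with a replicate block and 4 without COM-1 or without any 1 of the COM+Met samples, and it ranged from 4 to 7 over the 12 fits that left out 1 sample, with a median of 0.48 to 0.60. Gpnmb, a membrane glycoprotein of lysosomal stress, rose from 2004 ± 596 to 3991 ± 177 FPKM (1.05, SE 0.18, limma adjusted p = 0.0026), Atp6v0d2 from 51.4 ± 13.5 to 95.9 ± 10.6 FPKM (0.92, SE 0.17, limma adjusted p = 0.00378), and Clcn7, Lamp1, Mcoln1 and Ctsd were the others. Acp5, Ctsk and Ostm1 lay at -0.91, -0.08 and -0.16 without passing. Mitf itself was at 0.01 in this comparison. Against NC, 7 of the 10 were higher and 3 lower in COM+Met, with 6 and 2 after quantile normalisation and 8 and 2 with size factors.

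Targets of c-Maf were mostly too low to test, with 5 of 10 tested. In COM against NC, 0 were higher and 2 lower with limma, namely Mrc1, the mannose receptor, which fell from 80.0 ± 32.5 to 3.26 ± 1.93 FPKM (-4.29, SE 0.33, limma adjusted p = 6.08e-07), and Cd36, a scavenger receptor, which fell from 171 ± 66.1 to 74.8 ± 33.8 FPKM (-1.24, SE 0.32, limma adjusted p = 0.00646). Without NC-5 and NC-6, or without NC-6 alone, all 5 were lower, and without NC-5 alone 4 were. The Cd36 call was lost without COM-4, COM-5 and COM-6 (-0.62, limma adjusted p = 0.0797). After Met, 3 were higher than in COM and 1, Cd36, was lower. The 3 were the complement C1q chains, with C1qb at 21.3 ± 8.46 against 4.37 ± 1.86 FPKM (1.96, SE 0.36, limma adjusted p = 0.00384) and C1qa at 6.71 ± 2.77 against 1.09 ± 0.733 FPKM (1.82, SE 0.34, limma adjusted p = 0.00465), and their groups overlapped. Against NC the C1q chains did not pass in COM+Met, while Mrc1 and Cd36 were lower, and 2 of the list were higher without COM+Met-1.

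Inflammatory genes were among the targets of C/EBPβ and of BATF2 with IRF1. Of 9 C/EBPβ targets, 4 were higher and 2 lower in COM than in NC, with a median of 1.36. The median was 0.86 without NC-6, 0.27 without NC-5 and NC-6, 0.83 without COM-4, COM-5 and COM-6 and -0.03 with sample weights, with 4 higher in each. Saa3, an acute-phase protein, rose from 29.7 ± 21.1 to 5877 ± 3798 FPKM (7.74, SE 0.57, limma adjusted p = 4.71e-07), Lcn2, an iron-scavenging protein, from 23.5 ± 11.7 to 1133 ± 508 FPKM (5.57, SE 0.39, limma adjusted p = 2.89e-07) and Il1b, an inflammatory cytokine, from 86.8 ± 78.5 to 535 ± 67.8 FPKM (3.55, SE 0.80, limma adjusted p = 0.00255). Of 6 BATF2 and IRF1 targets, 5 were higher and 0 lower (limma), with a median of 4.01. Ccl5, a chemokine, rose from 8.81 ± 4.60 to 5866 ± 3937 FPKM (9.12, SE 0.42, limma adjusted p = 1.4e-08), Il12b, a subunit of IL-12, from 4.11 ± 4.24 to 183 ± 22.2 FPKM (5.65, SE 0.50, limma adjusted p = 2.11e-06) and Gbp2, an interferon-induced GTPase, from 28.6 ± 15.7 to 525 ± 285 FPKM (4.19, SE 0.48, limma adjusted p = 1.62e-05).

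After Met these inflammatory targets went in different directions. Il1b fell to 170 ± 9.25 FPKM (-1.64, SE 0.10, limma adjusted p = 5.61e-06) and Il10ra, a chain of the IL-10 receptor, from 35.1 ± 6.04 to 23.7 ± 1.38 FPKM (-0.53, SE 0.12, limma adjusted p = 0.0103). Il12b went to 120 ± 19.6 FPKM (-0.61, SE 0.12, limma adjusted p = 0.00623), and Il1b and Il12b did not overlap with COM. Tnf, which had not passed in COM, rose from 193 ± 120 to 410 ± 31.3 FPKM (1.33, SE 0.34, limma adjusted p = 0.0226). The Tnf call was lost without COM-2 (1.17, limma adjusted p = 0.0507). With all 18 samples in the fit, the Il1b, Il12b and Tnf calls were lost (limma adjusted p = 0.105, 0.348 and 0.0946). The Il10ra call was lost without COM-1, COM-2 and COM-3 (limma adjusted p = 0.0532). Of 7 C/EBPβ targets tested in COM+Met against COM, 0 were higher and 2 lower (limma), and of 6 BATF2 and IRF1 targets 1 was higher and 1 lower, with 0 higher (limma) without COM-2 and 2 without COM-5. With NC as the reference, 5 of 8 C/EBPβ targets and 6 of 6 BATF2 and IRF1 targets were higher, and 2 and 0 were lower. Without NC-5, 3 of the 8 were higher.

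Counts in COM+Met against COM changed with the COM samples used. With COM-1, COM-2 and COM-3 alone, 8 relatives were higher and 10 lower, 2 partner factors were higher and 7 lower, and 4 PU.1 and C/EBP targets were higher and 8 lower. Of MITF targets 7 were higher and 3 lower, of c-Maf targets 3 and 2, of C/EBPβ targets 2 and 2, and of BATF2 targets 5 and 1. With COM-4, COM-5 and COM-6 alone, 4 relatives were higher and 1 lower, 0 partner factors were higher and 2 lower, and 2 PU.1 and C/EBP targets were higher and 4 lower (limma). Of MITF targets 5 were higher and 0 lower, of c-Maf targets 4 and 2, of C/EBPβ targets 0 and 2, and of BATF2 targets 1 and 3. Over all genes, 1850 of 10373 were higher and 4499 lower with COM-1, COM-2 and COM-3 alone. With COM-4, COM-5 and COM-6 alone, 1646 of 10211 were higher and 793 lower. Both sets gave more higher than lower calls for MITF and c-Maf targets, as the second set also did for all genes. Targets were listed from general knowledge of these factors, and whether the factors caused these changes was not tested.

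**Figure D4:**
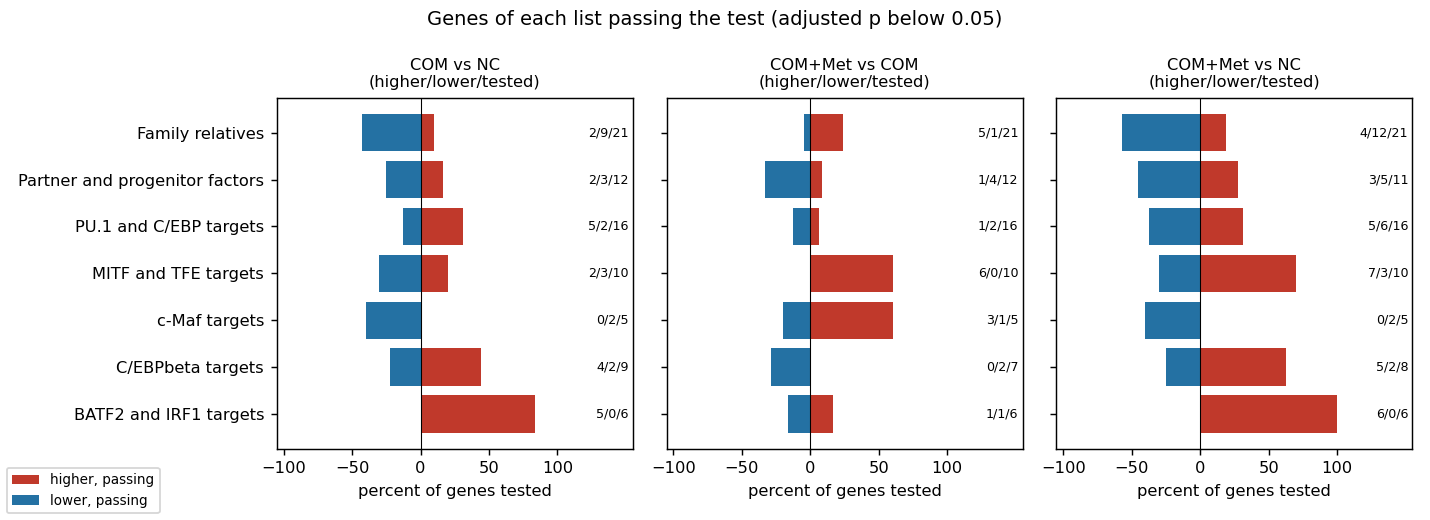
Percent of the tested genes of each list that passed with limma (adjusted p below 0.05), higher to the right and lower to the left, in the 3 comparisons, with counts as higher/lower/tested. For COM+Met against COM the MITF and TFE targets have 6 of 10 genes higher, and for COM against NC the BATF2 and IRF1 targets have 5 of 6 genes higher.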

How the data were processed

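RNA of the BMDMs was sequenced from TruSeq libraries in 18 samples, and samples were grouped and numbered by their titles and treatment labels. The authors deposited FPKM values of 25926 genes, with a column per sample, scaled by them for gene length and sequencing total. Among tools and builds, the submitters' processing notes list Bowtie 0.12.2, mm8 and mm9, and the quantifier, annotation, filters and use of strand were not given in the sources used. All 18 sample columns were used. Depth is unknown from FPKM, so counting error could not be stated, and a rise of abundant genes lowers the FPKM of the rest.

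From the deposited FPKM, log2(FPKM + 1) was computed. Genes whose mean over the 12 samples compared was 1 FPKM or more were tested with limma 3.58.1 (eBayes with trend) in R 4.3.3, in a fit of each pair of groups, with Benjamini-Hochberg adjustment over all genes tested and a threshold of 0.05. All 9 factors passed the filter in every comparison. Batf2 was under it in NC. Exact permutation tests used all 924 divisions of 12 samples. Scripts were tested on simulated data. The 9 factors, gene lists and marker lists were chosen with earlier results of these data known, so their direction is not independent evidence. From each list, up to 3 passing genes with the largest change in COM against NC and up to 2 in COM+Met against COM were named. Csf1r, Irf8, Tnf in COM, the remaining MITF targets and the C1q chains as a group were named after their values were seen. Ddit3 stands on 2 rows, and the row with the lower Ensembl number was used. Positions came from GENCODE M21 on GRCm38, matched by Ensembl identifier, and promoters from RefSeq on GRCm38.p6, matched by symbol for 5 of 9 factors. Alternatives were other pseudocounts (0.1 and 5), filters, scalings (same sum, median-of-ratios size factors, quantile normalisation), a replicate block, all 18 samples in the fit, sample weights, and samples left out singly or as sets.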

Additional observations from a re-analysis of the deposited data

Results flagged for a closer look

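In 27 groups of 6 values (9 factors in 3 groups of samples), the highest or lowest sample was compared with the nearest of the others by Dixon's test, which chance passes in about 1 in 20 groups, and 5 samples stood apart. In COM, COM-6 was lowest for Spi1 at 94.5 FPKM and for Cebpa at 2.92 FPKM. COM+Met-1 was lowest for Maf at 1.16 FPKM and highest for Bhlhe40 at 64.4 FPKM in COM+Met. NC-2 was highest for Bhlhe40 at 80.3 FPKM in NC.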

How the results depend on the processing

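Spi1, Cebpa, Tfec, Klf4 and Batf2 in COM against NC, and these 5 with Mitf in COM+Met against NC, kept their direction and passed under every alternative run. The number of factors passing in COM+Met against COM, 0 in the test reported, was 1 with the same sum in each sample, size factors, quantile normalisation, all 18 samples in the fit or without COM-1, COM-2 and COM-3, it was 6 with sample weights and 5 without COM-4, COM-5 and COM-6, and it ranged from 0 to 3 when samples were left out in turn, with 3 (Spi1, Cebpa and Bhlhe40) without COM-6. All genes passing there, 1384, became 744 with a replicate block, 6680 with sample weights, 6349 without COM-4, COM-5 and COM-6, 2439 without COM-1, COM-2 and COM-3, and from 943 to 2753 with single samples left out. Replicate numbers did not pair the samples, since deviations of same-numbered samples correlated at -0.222 to 0.057 and 0 of 18 correlated best with their own number. The replicate block left 5, 0 and 7 factors passing, as without it. Size factors and quantile normalisation moved the share of passing genes that were higher in COM than in NC from 23.8% to 49.8% and 46%, and in COM+Met against NC from 25.6% to 50.9% and 49.1%.

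The changes that turned sign had not passed in the test reported, except Bhlhe40 in COM+Met against NC, which was 0.027 with size factors. With sample weights, COM against NC gave Cebpb -0.50, Maf -0.37 and Mitf -0.035, COM+Met against COM gave Cebpb 0.093 and Maf 0.077, and COM+Met against NC gave Cebpb -0.43. Without NC-5 and NC-6, Cebpb was -0.20 and Maf -0.0032 in COM, and Cebpb -0.35 in COM+Met against NC. Without COM-4, COM-5 and COM-6, Cebpb was -0.14 and Maf -0.047 against NC, and 0.20 and 0.035 in COM+Met against COM. Without COM-1, COM-2 and COM-3, Bhlhe40 was -0.11 against NC, and COM+Met against COM gave Spi1 0.015, Mitf -0.34, Tfec 0.33 and Batf2 -0.21. Mitf was -0.036 there with the same sum. Maf in COM+Met against NC was 0.059 with a pseudocount of 0.1, 0.20 with size factors and 0.33 with quantile normalisation. With single samples left out, Cebpb in COM against NC ranged from -0.041 to 0.37, Mitf and Tfec in COM+Met against COM from -0.067 to 0.14 and from -0.15 to 0.042, and Cebpb and Maf in COM+Met against NC from -0.19 to 0.22 and from -0.19 to 0.11. Over all alternatives, 574 changes of the factors kept their sign and their side of the threshold, 30 passed newly, 1 no longer passed and 39 turned sign, and of the changes of named list genes 798 kept both and 36 no longer passed. With a filter of 5 FPKM, Maf had no value, nor did Klf4 in COM+Met against COM. The cause of these changes was not tested. FPKM without counts limits what can be said of low genes such as Maf and Batf2 in NC.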
